A study of Mus musculus with 2 samples.

Results

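Tumour cells high in Gadd45b and Cxcl1 are the tumour cells of this single-cell RNA data set with the highest summed level of 5 genes, namely Gadd45b, Gadd45g, Cxcl1, Plk2 and Serpinb8, so they were chosen by these measured values. A cell counted as a tumour cell when it had no UMI (unique molecular identifier, a tag that marks 1 captured RNA molecule) of the leukocyte gene Ptprc and at least 5 UMIs, and at least 10 per 10,000 UMIs, of Hmga2 and Rhox5 together. The score of a cell was its number of UMIs of the 5 genes per 10,000 UMIs, and the members were the top 10% of tumour cells of both libraries pooled. They numbered 2226 of 22257 tumour cells, out of 34471 cells kept in all. The library of the serine/glycine-free diet held 1465 members among 12228 tumour cells, and the library of the control diet held 761 among 10029.

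The cells came from subcutaneous tumours of mice given a diet without the amino acids serine and glycine (SG, 1 library) or a control diet (CT, 1 library). The labels give no tumour line, mouse strain, age or number of mice for a library. Since each diet is a single library, replicate spread is unknown, no test was made and every difference is between 2 libraries. All intervals are 95% and cover counting error only.

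The 5 score genes belong to different branches of the cell's response to stress and inflammation. Gadd45b and Gadd45g encode small adaptor proteins that bind stress-activated kinases and that are induced by stress and inflammatory signals. Cxcl1 encodes a secreted chemokine that draws neutrophils and is a classic target of the transcription factor NF-kB. Plk2 encodes a polo-like kinase made early after serum or stress, and Serpinb8 an intracellular serine protease inhibitor. NF-kB is held in the cytoplasm by an inhibitor, the product of Nfkbia, and switches that inhibitor on again as feedback. Hypoxia, heat shock, unfolded protein and immediate-early programmes are the other fast responses that a tumour cell can mount, and lists of their genes were set beside the score.

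The promoters of 4 of the 5 score genes, and of Nfkbia as the NF-kB feedback gene, are shown because the score genes turned out to differ in which programme they moved with. Each is the 250 bases before the gene's start, 5′ to 3′, from RefSeq on GRCm38.p6 (the build of the files, mm10, is GRCm38), with capitals marking matches, searched on both strands, to an NF-kB site (GGG, any 2 bases, then TTTCC), an AP-1 site (TGANTCA), a cyclic AMP response element (TGACGTCA) or an ATF4-C/EBP core (TTGCATCA).
Cxcl1 (chr5:90890995-90891244, plus strand): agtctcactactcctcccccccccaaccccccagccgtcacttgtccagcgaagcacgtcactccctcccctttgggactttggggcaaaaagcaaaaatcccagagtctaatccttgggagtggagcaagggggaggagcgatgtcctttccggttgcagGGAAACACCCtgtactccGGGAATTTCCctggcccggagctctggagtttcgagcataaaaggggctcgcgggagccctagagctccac
Nfkbia (chr12:55492648-55492897, minus strand): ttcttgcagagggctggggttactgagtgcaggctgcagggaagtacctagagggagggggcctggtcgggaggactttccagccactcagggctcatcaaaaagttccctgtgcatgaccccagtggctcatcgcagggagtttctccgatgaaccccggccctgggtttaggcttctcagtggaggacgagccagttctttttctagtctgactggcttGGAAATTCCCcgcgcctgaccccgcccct
Gadd45g (chr13:51846425-51846674, plus strand): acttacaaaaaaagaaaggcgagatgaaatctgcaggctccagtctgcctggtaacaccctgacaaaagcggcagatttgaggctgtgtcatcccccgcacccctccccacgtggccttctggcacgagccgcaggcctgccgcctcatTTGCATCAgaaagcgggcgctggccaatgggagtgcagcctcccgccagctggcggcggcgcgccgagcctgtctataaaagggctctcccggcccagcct
Plk2 (chr13:110394794-110395043, plus strand): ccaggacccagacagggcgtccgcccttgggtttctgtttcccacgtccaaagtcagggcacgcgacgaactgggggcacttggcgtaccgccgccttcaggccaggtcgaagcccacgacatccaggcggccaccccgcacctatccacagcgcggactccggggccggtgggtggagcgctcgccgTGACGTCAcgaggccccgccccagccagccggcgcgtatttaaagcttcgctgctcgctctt
Serpinb8 (chr1:107589756-107590005, plus strand): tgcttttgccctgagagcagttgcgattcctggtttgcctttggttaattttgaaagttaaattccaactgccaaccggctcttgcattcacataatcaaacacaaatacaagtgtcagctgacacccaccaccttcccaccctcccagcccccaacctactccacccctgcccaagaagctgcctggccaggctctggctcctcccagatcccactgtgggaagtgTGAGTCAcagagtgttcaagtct
Cxcl1 held 2 NF-kB matches, beginning 89 and 71 bases before the start, and Nfkbia held 1, beginning 29 bases before it. Gadd45g held the ATF4-C/EBP core 101 bases, Plk2 the cyclic AMP response element 62 bases, and Serpinb8 the AP-1 site 23 bases before the start. Gadd45b, whose promoter is not shown, held none of these 4 motifs. Of 24834 RefSeq promoters of that length, 1.37% held the NF-kB motif, 6.50% the AP-1 motif, 1.83% the cyclic AMP response element and 0.846% the ATF4-C/EBP core. A match describes letters only and is no evidence of binding.

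The genes of the tumour-cell rule were high in both groups by that choice, and are given as a description. Hmga2, which encodes a DNA-binding chromatin protein that many tumours switch on again, stood at 1719 CPM (counts per 1000000 UMIs, from UMIs summed over the cells of a group) in SG members and 2132 CPM in other SG tumour cells, and at 1863 CPM in CT members and 2149 CPM in other CT tumour cells. Rhox5, an X-linked homeobox gene, stood at 610 CPM in members and 633 CPM in others in SG, and at 574 and 645 CPM in CT. The epithelial marker Epcam was at 0 UMIs in the members of both libraries, but other epithelial markers were not. The 5 epithelial markers summed to 13.9 CPM in members and 10.4 CPM in others in SG, and to 34.7 and 32.6 CPM in CT. Most of this was Krt18, at 13.2 CPM in SG members and 33.5 CPM in CT members. Macrophage markers, 8 genes, summed to 276 CPM in SG members, 242 CPM in other SG tumour cells and 9480 CPM in Ptprc-positive SG cells, and to 133, 135 and 15783 CPM in the same cells of CT. None of the macrophage markers was at 0 in the members, and 7 of 8 in SG and 3 of 8 in CT were higher in members than in other tumour cells. Neutrophil markers, 6 genes, summed to 15.9 and 8.73 CPM in SG members and others, and to 10.4 and 3.46 CPM in CT. Endothelial markers, 5 genes, summed to 13.1 and 7.11 CPM in SG and to 16.5 and 3.32 CPM in CT, and fewer than 5% of members had any such UMI. Single cells held much of these sums in CT members, with 108 of 116 Fabp4 UMIs and 40 of 55 S100a9 UMIs in 1 cell each. Without the cell with most UMIs in each group, Fabp4 stood at 0.808 CPM in members and 1.47 CPM in others in CT. Cdh5 and Egfl7 were then also lower in CT members, while Pecam1 (1.01 against 0.666 CPM) and Kdr (0.101 against 0.037 CPM) stayed higher. The values of Cdh5, Egfl7 and Kdr rested on few UMIs. S100a9 then stood at 1.51 and 1.29 CPM in CT. Fibroblast markers, 6 genes, summed to 580 and 608 CPM in SG and to 396 and 477 CPM in CT. In Ptprc-positive cells they summed to 478 CPM in SG and 311 CPM in CT. Of the 6 genes, 3 in SG and 1 in CT were higher in members. Dcn was higher in both, at 183 and 83.0 CPM in SG and at 62.3 and 36.5 CPM in CT. Without the cell with most UMIs in each group, Dcn stood at 46.8 and 35.4 CPM in CT. The part of these other RNAs in the results was not tested.

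Members are a range of a score, not a cell type, and many sat close to its edge. The cut lay at 4.39 UMIs per 10,000, with the lowest member and the highest other tumour cell both at 4.39. Within 10% of the cut lay 748 tumour cells, of which 328 were members. The median score was 7.01 in SG members and 6.08 in CT members, against 0.995 in other SG and 0.944 in other CT tumour cells. Members with fewer than 5 score UMIs made up 28.8% of SG and 11.4% of CT members, and 1 of the 5 genes alone carried the score in 16.5% and 9.20%. At least 3 of the 5 genes were seen in 44.4% of SG and 58.1% of CT members, and at least 2 in 83.5% and 90.8%, so most members carried more than 1 of the genes. Members were shallower than other tumour cells, with a median of 8432 against 9657 UMIs in SG and 11819 against 13351.5 UMIs in CT. Their share of mitochondrial UMIs was not higher, at a median of 3.51% against 4.11% in SG and 4.17% against 4.53% in CT. The libraries shared 87 barcodes, 38 of them tumour-cell barcodes in both, and 15 barcodes of members were found in both.

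The score genes themselves, which chose the members, are given as a description. Cxcl1 was the most uneven of them, at 471 CPM in SG members against 19.2 CPM in other SG tumour cells, and at 277 against 11.6 CPM in CT. Members thus held 74.7% of the Cxcl1 UMIs of SG tumour cells and 63.7% of those of CT, while holding 10.7% and 6.84% of all UMIs. Gadd45g stood at 242 against 36.7 CPM in SG and 157 against 38.9 CPM in CT, and Gadd45b at 140 against 20.9 CPM in SG and 114 against 24.0 CPM in CT. Plk2 stood at 229 against 41.1 CPM in SG and 193 against 39.1 CPM in CT. Serpinb8 was the lowest, at 18.0 against 5.23 CPM in SG and 39.9 against 7.71 CPM in CT, and it was the only 1 of the 5 that was higher in CT members than in SG members. A Cxcl1 UMI was found in 62.6% of SG members and 14.4% of other SG tumour cells, and in 59.3% and 11.3% in CT. In cells with a UMI of the T-cell gene Cd3e and none of Hmga2 or Rhox5, which were picked after the data were seen as cells that should lack Cxcl1, it was found in 1.60% of 626 SG cells and 1.27% of 237 CT cells, at a median depth of 1956.5 and 2538 UMIs. The Cxcl1 level in these cells was 31.3 CPM in SG and 12.2 CPM in CT, with 53.2% and 77.8% of the UMIs in 1 cell, which is no lower than in the tumour cells that were not members. In Ptprc-positive cells all 5 score genes were higher than in tumour cells that were not members, in each library. Cxcl1 stood there at 50.1 CPM in SG and 29.3 CPM in CT, and Gadd45b at 40.4 and 38.6 CPM. An Hmga2 UMI was found in 34.3% of Ptprc-positive SG cells and 29.9% of those of CT. Thinned to 3000 UMIs per cell, which left out 90 SG and 32 CT tumour cells as shallower, Cxcl1 was found in 44.9% of SG members and 4.99% of others, and in 36.8% and 3.21% in CT.

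**Figure D1:**
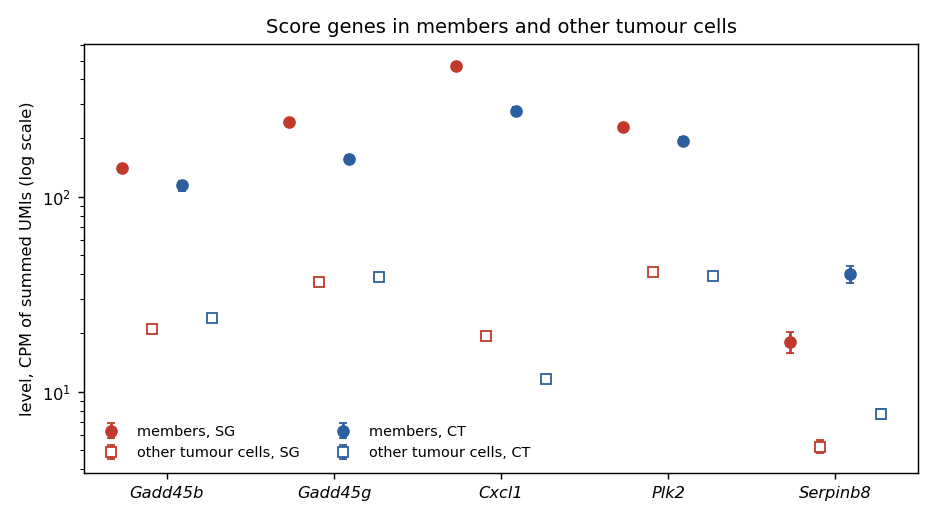
Level of each score gene (CPM of UMIs summed over cells, log scale) in members (filled circles) and other tumour cells (open squares) of the SG (red) and CT (blue) libraries, with 95% Poisson intervals of the counts; the rule chose members by these genes. Cxcl1 shows the widest gap, 471 against 19.2 CPM in SG and 277 against 11.6 CPM in CT, and Serpinb8 alone is higher in CT members (39.9 CPM) than in SG members (18.0 CPM).

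Whether the 5 genes go together was asked by leaving each out of the score, taking the top 10% of tumour cells by the other 4, and reading the left-out gene there. Cxcl1 was at 219 CPM in the top SG cells by the other 4 genes and 50.3 CPM in the remaining SG tumour cells, a ratio of 4.36 (4.17 to 4.56), and at 93.4 and 24.5 CPM in CT, a ratio of 3.82 (3.55 to 4.09). The ratio was 4.08 (3.83 to 4.35) in SG and 2.95 (2.72 to 3.19) in CT for Gadd45b, and 3.21 (3.06 to 3.38) and 2.47 (2.31 to 2.63) for Plk2. These 3 genes were higher in cells chosen without them, in each library. The 5 genes were grouped with earlier results of these data known, so the ratios describe the group and are no independent support for it. Gadd45g had a ratio of 2.90 (2.75 to 3.05) in SG and only 1.42 (1.31 to 1.54) in CT. Its UMIs were found in 34.9% of the top and 31.1% of the remaining cells in SG, and in 37.8% and 36.7% in CT. For Cxcl1 these shares were 34.0% and 18.5% in SG, and 30.6% and 13.6% in CT. Serpinb8 had 1.05 (0.845 to 1.30) in SG, an interval that holds no difference, and 1.36 (1.12 to 1.63) in CT. Serpinb8 thus had the lowest ratio in SG, while in CT its interval overlapped that of Gadd45g.

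Each member was also assigned to the score gene with most UMIs in it. Cxcl1 led in 511 SG members (34.9%, 32.4 to 37.4) and 234 CT members (30.7%, 27.5 to 34.2). Gadd45g led in 348 SG and 176 CT members, Plk2 in 271 SG and 172 CT members, and Gadd45b in 120 SG and 64 CT members. Serpinb8 led in only 26 SG members (1.77%, 1.16 to 2.59) and 46 CT members (6.04%, 4.46 to 7.98). A tie for the lead was found in 189 SG and 69 CT members. The score therefore joined cells led by different genes, and their other genes differed as follows.

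NF-kB genes were highest in the cells led by Cxcl1. The median log2 difference from other tumour cells of the 18 NF-kB genes with at least 20 CPM was 1.17 in SG and 1.18 in CT for members led by Cxcl1, and 0.34 and 0.13 for members led by Gadd45g. Members led by Plk2 (0.74 and 0.74) and by Gadd45b (0.65 and 0.87) lay between. Ccl2, a chemokine for monocytes, stood at 1029 CPM in SG and 751 CPM in CT members led by Cxcl1, against 227 and 124 CPM in members led by Gadd45g. Lcn2, an iron-binding protein of inflamed tissue, stood at 252 and 92.3 CPM in members led by Cxcl1, against 28.9 and 7.2 CPM in those led by Gadd45g. Hypoxia genes, 15 of them, had their highest median in members led by Gadd45b, at 1.14 in SG and 1.08 in CT, against 0.68 and 0.55 in members led by Cxcl1. Members led by Plk2 had the highest median of 18 ATF4 and integrated stress response genes (0.36 and 0.21) and of 16 unfolded protein response genes (0.34 and 0.32). Ddit3, the stress transcription factor CHOP, stood at 305 CPM in SG and 383 CPM in CT members led by Plk2, and at 145 and 175 CPM in those led by Cxcl1. Interferon genes, 22 of them, had medians of 0.29 in SG and 0.29 in CT for members led by Cxcl1 against -0.61 and -0.38 for members led by Plk2. Members led by Gadd45b stood at -0.61 in SG and 0.23 in CT and those led by Gadd45g at -0.07 and 0.23, so the sign for these sets was not shared by the libraries. The smallest of these sets is 64 cells, so its single genes rest on few UMIs.

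Tumour cells were also ranked by a list, and the score genes were read in the top 10%. The NF-kB part of the split appeared again, and the hypoxia part did not. In the cells highest in hypoxia genes, the ratio to the rest was alike for Gadd45b (2.65 in SG and 2.68 in CT) and Cxcl1 (2.56 and 2.69). In the cells highest in NF-kB genes, Cxcl1 stood at 396 CPM against 28.9 CPM in the rest in SG, and at 225 against 18.1 CPM in CT, a ratio of 13.7 (13.1 to 14.3) and 12.4 (11.7 to 13.2). Serpinb8 behaved apart from the other 4. In the cells highest in mitosis genes it stood at 28.2 CPM against 2.72 CPM in the rest in SG, and at 53.3 against 5.11 CPM in CT, a ratio of 10.4 (9.0 to 12.0) in SG and 10.4 (9.39 to 11.6) in CT. In the cells highest in DNA replication genes it was nearly missing, at 0.742 CPM against 7.42 CPM in SG and 1.42 against 10.8 CPM in CT, a ratio of 0.10 (0.0515 to 0.176) and 0.132 (0.0790 to 0.206). Cxcl1 was lower in the mitotic cells, with a ratio of 0.499 (0.462 to 0.538) in SG and 0.585 (0.515 to 0.663) in CT. Serpinb8 UMIs were thus found in the mitotic end of the cell cycle in both libraries, where the other score genes were not higher.

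**Figure D2:**
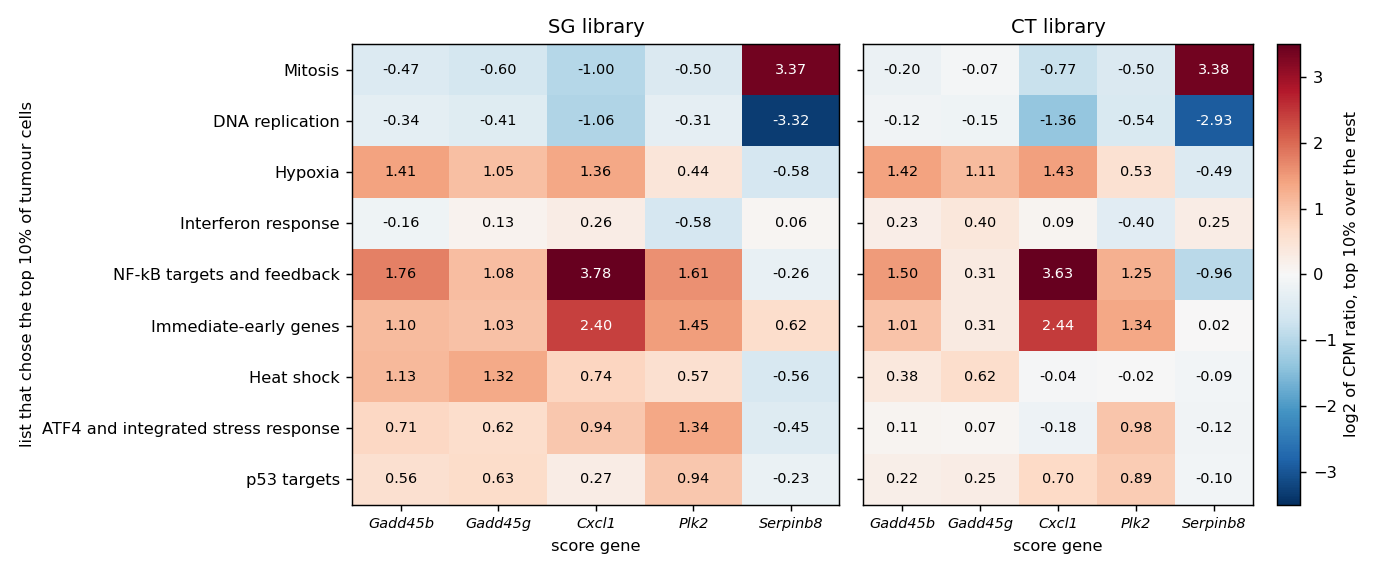
Level of each score gene (columns) in the top 10% of tumour cells by each gene list (rows) against the remaining tumour cells of the same library, as log2 of the CPM ratio, with SG on the left and CT on the right; red is higher and blue lower in the top cells. Serpinb8 stands at 3.37 in SG and 3.38 in CT for mitosis and at -3.32 and -2.93 for DNA replication, and Cxcl1 at 3.78 and 3.63 for NF-kB genes.

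Members were then set against the other tumour cells over all genes except the score genes and the genes of the tumour-cell rule. Differences are log2 of CPM plus 1 on summed UMIs, genes needed a mean of at least 20 CPM over the 4 groups, and a gene was counted as higher or lower at 1.5-fold or more in both libraries. A gene under 20 CPM in some groups could pass this filter through the groups where it was high. Tnfaip3 passed through members, and Elovl6 through the other tumour cells. Of 6264 genes, 83 (1.33%) were higher in members and 9 (0.144%) were lower. Counted in SG alone 127 (2.03%) were higher and 43 (0.686%) lower, and in CT alone 114 (1.82%) and 23 (0.367%). The highest by the smaller of their 2 log2 differences was Ccl2, at 523 CPM in members and 155 CPM in other tumour cells of SG (1.75) and at 323 and 96.6 CPM in CT (1.73). Nfkbia, the NF-kB inhibitor, stood at 617 and 189 CPM in SG (1.70) and 391 and 118 CPM in CT (1.72), and Tnfaip3, which encodes another NF-kB brake, A20, at 43.5 and 14.7 CPM in SG (1.51) and 25.5 and 8.45 CPM in CT (1.49). Ccn1, a matrix protein induced by growth factors (1.71 in SG and 1.51 in CT), Ier3 (1.69 and 1.47), Lcn2 (1.70 and 1.46), the hypoxia-induced repressor Bhlhe40 (1.43 and 1.45) and Hmox1, the haem-degrading enzyme of oxidative stress (1.70 and 1.29), followed. The others among the 15 highest were Gm16685, the small heat shock protein Cryab, the chaperone partner Dnajb1, the mitophagy receptor Bnip3, Tcim, Ndrg1 and the receptor Tnfrsf9, with log2 differences from 1.02 to 1.67. Inflammatory feedback, hypoxia and protein-folding genes thus stood side by side at the top of the order in both libraries.

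**Figure D3:**
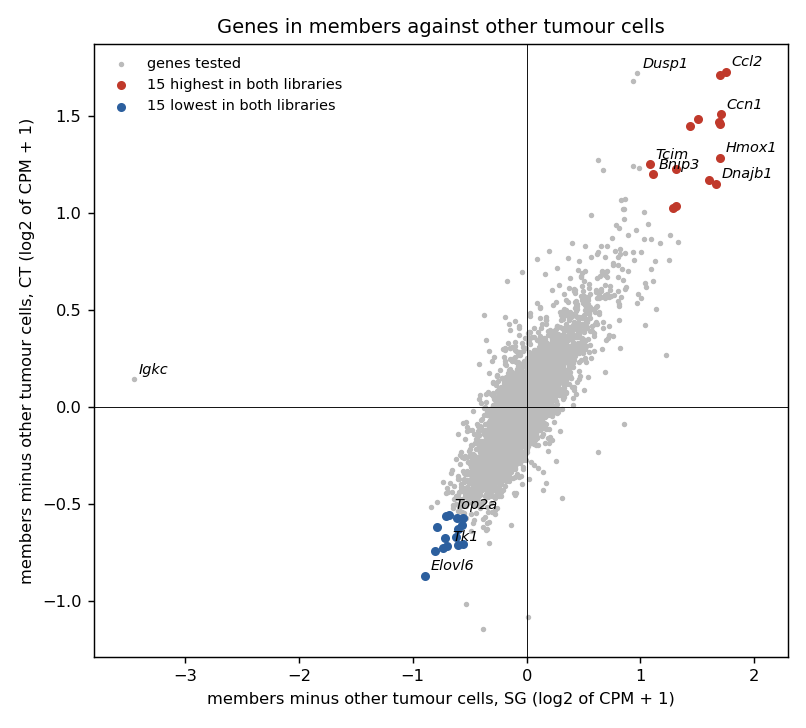
Log2 difference between members and other tumour cells (CPM plus 1) in SG (x axis) and CT (y axis) for the 6264 genes tested, with the 15 highest (red) and 15 lowest (blue) by the rule for named genes. Ccl2 lies at 1.75 and 1.73, Elovl6 at -0.89 and -0.87, Dusp1 at 0.97 and 1.72, and Igkc, antibody RNA, at -3.45 in SG and 0.14 in CT.

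The differences of the 15 lowest genes were smaller in size. Elovl6, a fatty acid elongase, stood at 15 CPM in members and 28.7 CPM in other tumour cells of SG (-0.89) and at 12.7 and 24.1 CPM in CT (-0.87). The linker histone gene Hist1h1b stood at 114 and 199 CPM in SG (-0.80) and 68.6 and 115 CPM in CT (-0.74), and the thymidine kinase gene Tk1 at 55.9 and 91.7 CPM in SG (-0.70) and 38.6 and 64.2 CPM in CT (-0.72). Dctpp1, Zdhhc12, Ak5, Efcab11, Mxd3, Pclaf, Brca2, Zfp934, Loxl3, Prim2, Top2a and Pola2 made up the rest of the 15, from -0.56 to -0.78. Pclaf, Brca2, Prim2, Top2a and Pola2 act in DNA replication, repair or chromosome untangling.

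NF-kB targets and feedback genes were the list that stood highest in members. Of 37 listed genes 18 passed the filter of 20 CPM, all 18 were above 0 in both libraries, and 11 of 18 were at least 1.5-fold higher in both (14 in SG and 12 in CT), with a median of 0.81 in SG and 0.86 in CT against -0.05 and -0.02 over all genes tested. With no filter on low values the medians were 0.78 and 0.75. Beside Ccl2, Nfkbia, Tnfaip3, Ier3 and Lcn2 these were Irf1, Nfkbiz, Ptgs2, Tnip1, Traf1 and Vcam1. Ptgs2, the inducible cyclooxygenase, stood at 172 CPM in members and 75.8 CPM in other tumour cells of SG and at 133 and 73.4 CPM in CT. The other neutrophil-attracting chemokines were too low for the filter. Cxcl2 stood at 14.5 CPM in members and 7.71 CPM in other tumour cells of SG and at 17.8 and 3.10 CPM in CT, and Cxcl5 at 11.5 and 1.92 CPM in SG and 3.03 and 0.185 CPM in CT. In CT 1 member held 82 of the 177 Cxcl2 UMIs. Without the cell with most UMIs in each group, Cxcl2 stood at 9.59 CPM in CT members and 2.71 CPM in other CT tumour cells, and its SG minus CT difference in members turned to 0.27 from -0.28. Without Cxcl1 in the score the median of the NF-kB list was 0.50 in SG and 0.43 in CT, so the list was lower, and still above all genes, in cells chosen by the other 4 genes.

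Immediate-early genes, the fast transcription factors and their regulators, were next, with 15 of 30 at least 1.5-fold higher in both libraries and a median of 0.64 in SG and 0.66 in CT. Dusp1, a phosphatase of stress kinases, stood at 176 CPM in members and 89.6 CPM in other tumour cells of SG (0.97) and at 133 and 39.5 CPM in CT (1.72). Fos stood at 66.5 and 34.2 CPM in SG (0.94) and 163 and 49.9 CPM in CT (1.68). Hypoxia genes had 7 of 15 higher in both (Ankrd37, Bnip3, Ero1l, Higd1a, Ndrg1, P4ha1 and Slc2a1), all 15 above 0, and a median of 0.64 in SG and 0.50 in CT. Slc2a1, the glucose transporter GLUT1, stood at 90.4 CPM in members and 42.7 CPM in others in SG (1.07) and at 58.6 and 29.9 CPM in CT (0.95). Heat shock genes had 3 of 10 higher in both (Dnajb1, Dnajb4 and Hsph1), with a median of 0.40 in SG and 0.19 in CT.

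Other stress lists moved in a few genes only. In the ATF4 and integrated stress response list 2 of 18 genes were higher in both libraries, Ddit3 (1.04 in SG and 0.64 in CT) and Ppp1r15a (1.05 and 0.62), whose product, GADD34, restores translation. Its median was 0.13 in SG and 0.06 in CT, and Psat1, an enzyme of serine synthesis on that list, was at -0.34 and -0.47. In the p53 list 1 of 12 genes was higher in both, Mdm2 (0.73 and 0.63), while the cell-cycle inhibitor Cdkn1a was at 0.20 and 0.24 and the median at 0.008 and 0.11. In the unfolded protein response list 1 of 16 was higher in both, Dnajb9 (0.73 and 0.60), with a median of 0.11 in SG and 0.14 in CT. Of the 11 GADD45 and stress kinase genes none was (median 0.06 in SG and -0.01 in CT), and Gadd45a, the third gene of the family, stood at 81.3 CPM in members and 45.6 CPM in others in SG (0.82) and at 68.6 and 55.3 CPM in CT (0.31). In the TGF-beta and BMP list, which had a median of 0.43 in SG and 0.29 in CT over 11 genes, Smad7, an inhibitor of that pathway, was higher in both (0.89 and 0.70). The glucocorticoid list had Cebpd (0.99 and 1.23), Dusp1 and Zfp36 (0.67 and 1.22) of 10, with a median of 0.48 in SG and 0.53 in CT. The ERK feedback list had Dusp4, Ier3 and Phlda1 of 10 (median 0.17 in SG and 0.22 in CT). The interferon list had Cxcl10, a T-cell attractant (1.33 and 0.85), of 22, with a median of -0.05 in SG and 0.16 in CT. The apoptosis list had none of 11 higher or lower in both, with a median of -0.12 in SG and -0.10 in CT.

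No gene of the DNA replication list or of the serine synthesis and one-carbon list was 1.5-fold lower in members of both libraries, though most lay slightly below 0. All 23 DNA replication genes were below 0 in both, against 2965 of the 6264 genes tested, with a median of -0.36 in SG and -0.34 in CT. Mcm6, a subunit of the replicative helicase, stood at 58.7 CPM in members and 86.3 CPM in others in SG (-0.55) and at 58.7 and 78.9 CPM in CT (-0.42). Serine synthesis and one-carbon genes, the pathway of the amino acids left out of the diet, were below 0 in both libraries in 11 of 14 genes, with a median of -0.27 in SG and -0.31 in CT. Phgdh, which starts serine synthesis, stood at 230 CPM in members and 304 CPM in others in SG (-0.40) and at 231 and 300 CPM in CT (-0.38), and Shmt2, which turns serine into glycine in mitochondria, was at -0.43 in SG and -0.43 in CT.

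Mitosis genes depended on Serpinb8. Their median, over 30 genes, was -0.25 in SG and 0.13 in CT with the 5-gene score, and -0.44 in SG and -0.33 in CT when the score was taken without Serpinb8. Polo-like kinases showed the same, with Plk4 and Plk1, the 2 measured beside Plk2, at a median of -0.25 in SG and 0.13 in CT, and at -0.41 and -0.27 without Serpinb8. Under the 5-gene score 1 of the 30 mitosis genes was above 0 in SG members and 20 of 30 in CT members, and 10 were below 0 in both libraries. Over all genes tested 2551 of 6264 were above 0 in SG, 2816 in CT, and 2965 were below 0 in both. Mitosis genes were thus not below 0 in both libraries more often than all genes. Among the 10 mitosis genes below 0 in both, Top2a (-0.68 in SG and -0.56 in CT) and Aurkb (-0.55 and -0.55) had the largest differences.

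**Figure D4:**
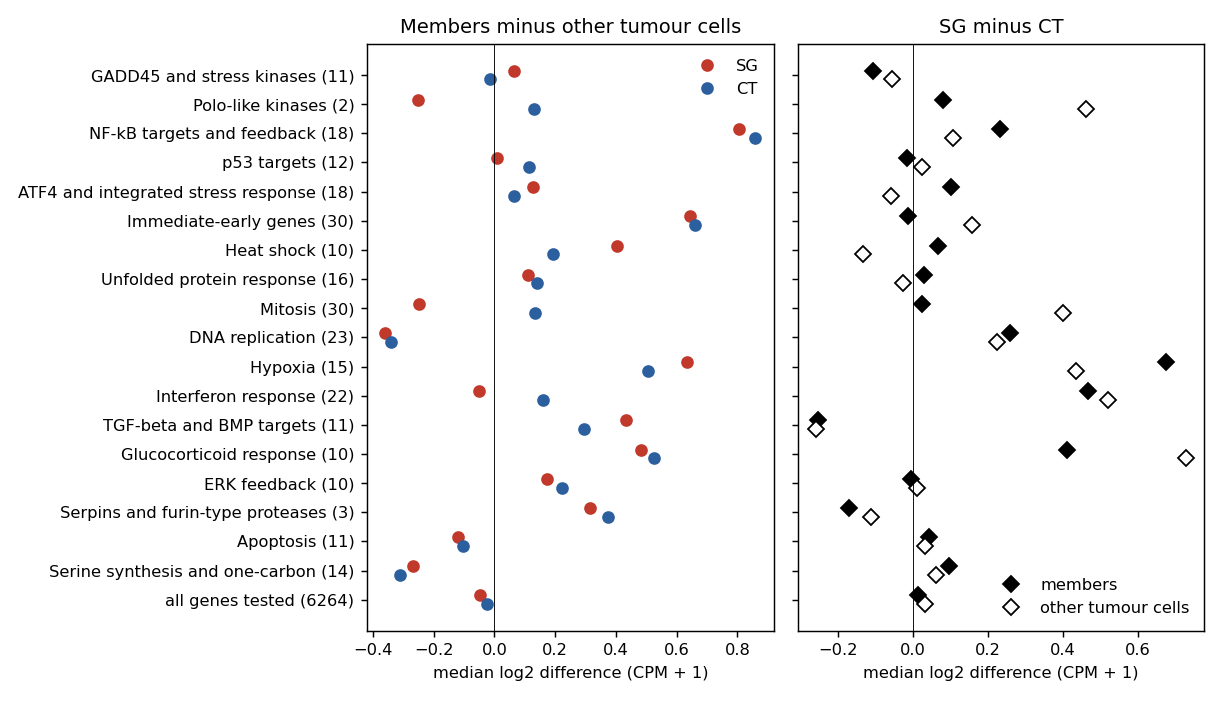
Median log2 difference (CPM plus 1) of each gene list, with the number of genes tested in brackets. Left, members minus other tumour cells in SG (red) and CT (blue); right, SG minus CT in members (filled) and in other tumour cells (open). NF-kB genes lie at 0.81 in SG and 0.86 in CT on the left, and hypoxia genes at 0.67 in members and 0.44 in other tumour cells on the right; the mitosis and polo-like kinase medians of CT turn below 0 without Serpinb8 in the score.

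Membership overlapped with several programmes without matching any 1 of them. Of SG members 42.3% (39.7 to 44.8) were also in the top 10% of tumour cells by NF-kB genes, against 8.52% of other SG tumour cells, and of CT members 29.6% (26.3 to 32.9), against 5.02%. For immediate-early genes the shares were 27.2% of members and 8.62% of others in SG, and 31.3% and 7.13% in CT. For hypoxia genes they were 33.7% and 12.8% in SG, and 11.8% and 2.85% in CT. For heat shock genes they were 22.7% and 10.9% in SG, and 11.4% and 6.80% in CT. The median heat shock level per 10,000 UMIs was nearly alike, at 81.0 in members and 79.8 in others in SG, and 76.9 and 76.1 in CT. For DNA replication genes the shares were 6.14% and 12.1% in SG, and 3.68% and 8.74% in CT. The score and the list levels are both per 10,000 UMIs and members were shallower, and the part of depth in these shares was not tested.

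Members were a larger part of the tumour cells under the serine/glycine-free diet. They made up 12.0% (11.4 to 12.6) of SG and 7.59% (7.08 to 8.12) of CT tumour cells, a ratio of 1.58 (1.45 to 1.72). The excess was largest at the top of the score. A score of at least 10 was reached by 3.42% of SG and 1.33% of CT tumour cells, a ratio of 2.58 (2.12 to 3.13). A score of at least 20 was reached by 150 SG cells (1.23%) and 28 CT cells (0.279%), a ratio of 4.39 (2.94 to 6.57), and of at least 50 by 32 and 3 cells. SG tumour cells were shallower, at a median of 9531.5 UMIs against 13243 in CT, so the share was also compared within classes of depth. The ratio was 1.33 (0.944 to 1.87) below 5000 UMIs per cell, 1.36 (1.17 to 1.57) from 5000 to 10000, 1.29 (1.12 to 1.49) from 10000 to 15000, 1.27 (1.0 to 1.62) from 15000 to 20000 and 1.87 (1.37 to 2.56) above. With cells thinned to 3000 UMIs the ratio was 1.34, and the mean number of score UMIs per cell was 0.727 in SG and 0.50 in CT. With the score taken without Cxcl1 it was 1.35. The direction was the same in each of these, and in all but the deepest class the ratio was smaller than 1.58.

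**Figure D5:**
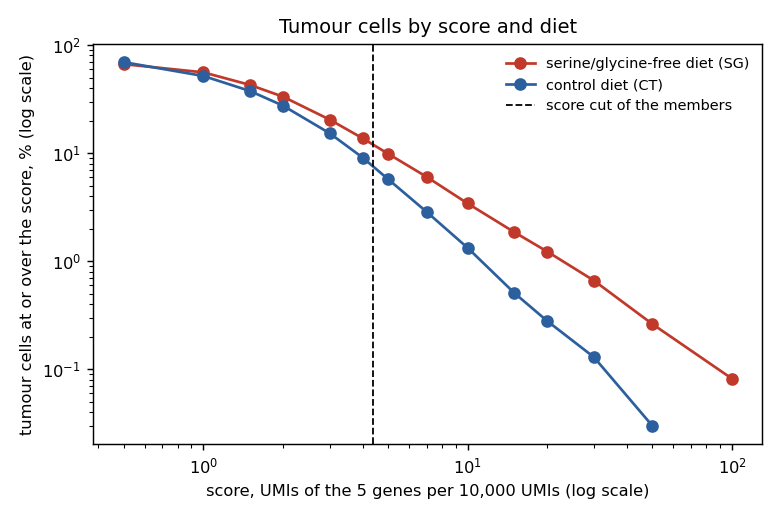
Percentage of tumour cells at or over each score (both axes log scale) in SG (red) and CT (blue), with the score cut of the members as a dashed line. The lines part along the upper range, with 1.23% of SG and 0.279% of CT tumour cells at a score of at least 20; the score is not corrected for the lower depth of SG cells.

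Cxcl1 was the score gene with the largest ratio between the diets. Over all tumour cells the 5 genes summed to 228 CPM in SG and 166 CPM in CT, a ratio of 1.37 (1.35 to 1.39). Over tumour cells that were not members they summed to 123 and 121 CPM, a ratio of 1.01 (0.992 to 1.04). The rule holds each of these cells below the same score cut, so this ratio cannot show where the diet difference lies. In these cells Cxcl1 had a ratio of 1.66 (1.55 to 1.77) and Plk2 of 1.05 (1.01 to 1.09), while Gadd45b, Gadd45g and Serpinb8 were lower in SG. Cxcl1 stood at 67.8 CPM in SG and 29.8 CPM in CT over all tumour cells, a ratio of 2.28 (2.19 to 2.36). Gadd45g had a ratio of 1.25 (1.21 to 1.29), Plk2 of 1.23 (1.20 to 1.27) and Gadd45b of 1.12 (1.07 to 1.16). Serpinb8 went the other way, at 6.60 CPM in SG and 9.92 CPM in CT, a ratio of 0.665 (0.611 to 0.724). The highest-scoring cells, with at least 20 score UMIs per 10,000, had NF-kB medians over other tumour cells of 1.51 in SG and 1.87 in CT and mitosis medians of -0.74 and -0.86.

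Among members, hypoxia genes differed most between the diets. Of 6264 genes 82 (1.31%) were at least 1.5-fold higher in SG members than in CT members and 52 (0.83%) were lower, against 88 (1.4%) and 46 (0.734%) in other tumour cells. Hypoxia genes were at least 1.5-fold higher in SG members in 10 of 15, with all 15 above 0 and a median of 0.67 in members and 0.44 in other tumour cells, where all genes lay at 0.01 and 0.03. Bnip3 stood at 225 CPM in SG and 115 CPM in CT members (0.96), Ero1l, an oxidase of the endoplasmic reticulum, at 289 and 158 CPM (0.86), and the glycolytic Pgk1 at 1536 and 869 CPM (0.82). The diet difference in members was larger than in other tumour cells for Ero1l (0.86 against 0.40), and smaller for Bnip3 (0.96 against 1.05), and neither gap was tested. Interferon genes were higher in SG members in 7 of 22, with a median of 0.47 in members and 0.52 in others, led by the GTPase Iigp1 at 117 CPM in SG and 57.1 CPM in CT members (1.02). NF-kB genes were higher in 5 of 18 (Ccl2, Ier3, Lcn2, Nfkbia and Tnfaip3), with a median of 0.23 in members and 0.11 in others.

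Immediate-early genes had no common direction between the diets in members, with a median of -0.01. Fos stood at 66.5 CPM in SG and 163 CPM in CT members (-1.28) and Fosb at 67.9 and 195 CPM (-1.51), whereas Ier3 (0.79) and the kinase Sgk1 (0.83) were higher in SG members. Nupr1, a stress-induced chromatin protein of the ATF4 list, stood at 211 CPM in SG and 410 CPM in CT members (-0.95). The activin antagonist Fst stood at 120 CPM in SG and 53.9 CPM in CT members (1.14). DNA replication genes were above 0 in all 23 (median 0.26 in members and 0.22 in others), Gins2 alone passing 1.5-fold. Mitosis genes had a median of 0.02 in members, with 18 of 30 above 0, and of 0.40 in others, with all 30 above 0. Over all genes tested 3297 of 6264 were above 0 in members and 3635 in others. The mitosis median in members changed with the setting. It was 0.22 with thinned cells (29 of 30 above 0), 0.15 with at least 5 score UMIs required and -0.10 with members chosen within each library. Glucocorticoid genes lay at 0.41 in members and 0.73 in others. Serine synthesis genes lay at 0.10 in members and 0.06 in others with none past 1.5-fold.

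Several of the genes with the largest diet difference in members are on the marker lists of other cell types. Igkc, antibody light chain, came out highest, at 7.86 CPM in SG and 0.807 CPM in CT members (2.29), but it passed the filter of 20 CPM only through other SG tumour cells (96.0 CPM), where 1 cell held 3765 of 11272 UMIs. Without that cell its mean over the groups was under the filter, and it would not have been ranked. Next were Rarres2, the attractant chemerin, at 60.2 and 19.1 CPM (1.61), Lcn2 at 108 and 35.2 CPM (1.59) and Dcn, a matrix proteoglycan, at 183 and 62.3 CPM (1.54). C1qa, a macrophage complement gene (1.53), Apoe (1.29), Cebpd, a transcription factor of inflammation (1.26), the collagens Col3a1 (1.20) and Col1a1 (1.19), and Fst completed the 10. The macrophage marker sum was 276 CPM in SG and 133 CPM in CT members, the B and plasma cell sum 9.98 and 2.32 CPM, and the fibroblast sum 580 and 396 CPM, and their part in these genes was not tested. Lcn2 (1.35), Cebpd (1.51) and Fst (1.22) had differences of like size in other tumour cells. There the others were higher in SG too. In SG and CT, Dcn stood at 83.0 and 36.5 CPM, Apoe at 72.0 and 40.6 CPM, and Rarres2 at 38.6 and 22.6 CPM. C1qa stood at 29.8 and 17.3 CPM, Col1a1 at 30.4 and 22.4 CPM, and Col3a1 at 39.0 and 36.2 CPM. The lowest were Dlgap2, a synaptic scaffold gene, at 6.23 CPM in SG and 52.9 CPM in CT members (-2.90), Sdccag8 (-1.67), Plet1 (-1.63), Oplah, an enzyme of the glutathione cycle (-1.54), Fosb, AY036118 (-1.31), the keratin Krt18 (-1.28), Anxa8 (-1.28), Fos and Osbpl7 (-1.26). Of these, Dlgap2, Plet1, Oplah, Krt18 and Osbpl7 were under 20 CPM in both SG groups and passed the filter only through CT. C1qa, among the highest, was under 20 CPM in both CT groups and passed only through SG. Dlgap2 (-2.72), Plet1 (-1.31), Oplah (-1.34), AY036118 (-1.35), Krt18 (-1.54) and Osbpl7 (-1.37) had differences of like size in other tumour cells, and Fos (-0.53) and Fosb (-0.86) smaller ones. Anxa8, at 23.7 CPM in SG and 49.7 CPM in CT, and Sdccag8, at 43.7 and 101 CPM, were also lower in other SG tumour cells.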

How the data were processed

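The authors deposited raw UMI counts per gene and cell barcode, 1 matrix per diet. They were made with Cell Ranger, version 7.0.1 per the file headers and 2.2.2 per the submitters' processing notes, on mm10. Neither intron handling nor the annotation release is stated in the sources used here. The labels' protocols state 10x 3' version 2 chemistry, and speak of human heart tissue, which conflicts with the labelled mouse tumour. The diets were read from titles (SG, CT) and the series' design text.

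Barcodes (20662 in SG, 14774 in CT, with 173592046 and 173785388 UMIs) were kept at 500 UMIs, 300 genes and at most 20% mitochondrial UMIs, leaving 20312 and 14159. No doublet caller was run, since the member rule has none. An alternative left out the 10% of cells with most UMIs. UMIs were summed per group (14123390 in SG members, 117447327 in other SG, 9916739 in CT members, 135069272 in other CT tumour cells) and compared as log2 of CPM plus 1. Intervals are exact Poisson or Clopper-Pearson, except those of ratios of shares of cells, which use a normal approximation of the log ratio.

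With 1 library per diet nothing was tested. Members and gene lists were chosen with earlier results of these data known. Named genes were the 15 highest and 15 lowest in members by the library with the smaller difference, the 10 highest and 10 lowest by diet in members, the 4 largest per list and the score genes. Other genes outside that rule were named after their values were seen. Of 375 genes on the lists, 249 were tested, and 1 of them is not reported here. Python 3.11.15, numpy 2.4.6, scipy 1.17.1, pandas 2.3.3 and matplotlib 3.10.9 were used, and the summing was tested on simulated counts.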

Additional observations from a re-analysis of the deposited data

Results flagged for a closer look

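Some values had opposite signs in the groups set side by side. None of these differences was tested, and with 1 library per diet none can be.

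Between the libraries, the mitosis list stood at a median of -0.25 for members minus other tumour cells in SG and 0.13 in CT, and the polo-like kinases at -0.25 and 0.13. The same sign difference was seen for Igkc (-3.45 in SG and 0.14 in CT), Rarres2 (0.63 and -0.23), C1qa (0.31 and -0.47), Apoe (0.15 and -0.33), Col3a1 (0.011 and -1.09), Sdccag8 (-0.41 and 0.06) and Oplah (-0.024 and 0.18). A single cell held 3765 of the 11272 Igkc UMIs in other SG tumour cells, and without it Igkc stood at -2.96 in SG. Without the cell with most UMIs in each group, Apoe stood at -0.03 and Col3a1 at -0.30 in SG.

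Between members and other tumour cells, the SG minus CT difference had opposite signs for the ATF4 list (0.10 in members and -0.06 in others) and the heat shock list (0.065 and -0.13). Among single genes this held for Gadd45b (0.29 and -0.19), Gadd45g (0.62 and -0.08), Tnfrsf9 (0.053 and -0.21) and Zdhhc12 (-0.0099 and 0.03). Gadd45b and Gadd45g were among the genes that chose the members.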

How the results depend on the processing

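No paired analysis was possible because each diet has 1 library and the labels carry no replicate numbers. The share of tumour cells that were members, SG over CT, was 1.58, and was 2.06 for the top 5% of the score, 1.28 for the top 20%, 1.34 with thinned cells, 1.35 without Cxcl1 in the score and 1.27 with at least 5 score UMIs required, a setting chosen after seeing the data. The summed score genes, 1.37 in SG over CT, stood at 1.41 without the 10% of cells with most UMIs and at 1.33 with totals without mitochondrial and ribosomal protein genes. Genes 1.5-fold higher in members of both libraries, 83, were 134 for the top 5%, 45 for the top 20% and 34 with thinned cells. Lower genes, 9, were 85 for the top 5%, 2 for the top 20%, 0 with thinned cells, 16 without Serpinb8, 21 without the deepest cells, 3 with a pseudocount of 10 CPM, 15 with the mean over cells and 5 with at least 5 score UMIs. List genes higher in members of both libraries, 44, were 26 for the top 20%, 21 with thinned cells and 25 without Cxcl1. List genes lower, 0, were 8 for the top 5%, 2 without Serpinb8 and 1 with the mean over cells. By diet in members, lower genes, 52, were 33 with a pseudocount of 10 CPM, and without a filter on low values 49 list genes were higher (29 with it) and 16 lower (5 with it). Of medians at 0.1 or more in size, those that changed sign were mitosis in CT (-0.41 for the top 5%, -0.33 without Serpinb8), polo-like kinases in CT (-0.26 and -0.27), interferon in CT (-0.00086 thinned), p53 in CT (-0.012) and ATF4 in SG (-0.023) without Plk2, serpins in CT (-0.011) and by diet (0.059) without a filter, and ATF4 by diet (-0.00125 for the top 20%). The cause was not tested. The 20 genes named for diet kept their sign in every setting run. Of the 30 genes named for members, none turned in both libraries in any setting run. A turn in 1 library alone was not counted as a change of sign, since the value compared is then set to 0. Depth limits single cells most: 28.8% of SG members rest on fewer than 5 score UMIs, and thinned scores shared 1531 of their 2613 members with the full score.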
